A study of Homo sapiens with 2 samples.

Results

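The 5 genes TIA1, TIAL1, TARDBP, EWSR1 and TAF15 encode RNA-binding proteins with a low-complexity domain, and the splicing of their own transcripts was compared between untreated cells and cells that received amiloride. All rows of the 5 deposited splicing tables whose gene symbol was one of these were taken, which gave 92 events of 159490 in 5 of the 12254 genes listed. Among skipped exons, the members contributed 65 events at 44 distinct exons of 67154, where an exon is told from others by its coordinates and strand. The 44 exons lay at 41 places, because 3 of them were longer or shorter forms of another listed exon.

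Polyadenylated RNA came from HEK293T, a line derived from human embryonic kidney that carries the SV40 large T antigen. The control library came from cells without treatment, and the other library from cells kept with amiloride, a sodium channel blocker, at 300 µg/mL for 6 h. With 1 library per condition there was no replicate error, so every difference compares these 2 libraries and not the conditions. The tables came from rMATS, which sets the reads for inclusion of a stretch against those for its skipping and gives each event an FDR and an inclusion level difference on a scale from -1 to 1. The libraries are numbered in the tables without their condition. Above 0, the library numbered first had more inclusion than the other, and no direction can be assigned to amiloride. The reads and inclusion levels of each library were not used for the same reason, and the depth behind each event is unknown. An event was called when its deposited FDR was under 0.1, and an exon with at least 1 called skipped-exon event is termed sensitive. Reads on the exon body had been counted for all 65 member events, since each inclusion form exceeded its skipping form in effective length by exactly the exon.

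TIA1 and TIAL1 (also known as TIAR) are paralogs that bind U-rich RNA with RNA recognition motifs. Downstream of a 5' splice site (5'SS) they help the U1 snRNP to recognise it, and under stress both collect in stress granules through a prion-like C-terminal domain. TARDBP encodes TDP-43, which binds GU repeats, keeps cryptic exons out of mRNA and limits its own level through its own transcript. EWSR1 and TAF15 belong to the FET family, whose members join a low-complexity N-terminal domain to an RNA recognition motif, a zinc finger and RGG repeats, and couple transcription to splicing.

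The sequences that the called events turn on are printed 5' to 3' on the transcript's strand, from GRCh37. Exon 5 of TIA1 is shown because its difference was the largest positive one among the called events of the members, and exon 8 of TAF15 as another short exon with a called event. In both the capitals mark the exon, between 30 intronic bases on each side that hold the 3' splice site (3'SS) and the 5'SS.
TIA1 exon 5, chr2:70456161-70456253, minus strand: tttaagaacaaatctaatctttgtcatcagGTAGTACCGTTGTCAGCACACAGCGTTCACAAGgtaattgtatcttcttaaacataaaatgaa
TAF15 exon 8, chr17:34160881-34160975, plus strand: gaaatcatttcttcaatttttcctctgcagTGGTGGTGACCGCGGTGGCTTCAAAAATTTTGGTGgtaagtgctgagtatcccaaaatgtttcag

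The choice between alternative splice sites was called in EWSR1 and in TAF15, and such a choice in TIAL1 was not. Each of these stretches is shown with the bases between the competing sites in capitals, which the longer form keeps and the shorter form loses.
EWSR1 exon 9, start, chr22:29687521-29687598, plus strand: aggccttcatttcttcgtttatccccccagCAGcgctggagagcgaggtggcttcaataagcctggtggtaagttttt
TAF15 exon 4, end, chr17:34147223-34147272, plus strand: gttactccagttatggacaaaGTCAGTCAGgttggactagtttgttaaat
TIAL1 exon 3, start, chr10:121342050-121342150, minus strand: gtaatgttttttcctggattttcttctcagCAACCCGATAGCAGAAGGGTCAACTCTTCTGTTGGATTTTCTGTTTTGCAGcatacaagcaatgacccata

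Over all event types, 27 of the 92 member events were called, which is 29.3% (95% Wilson interval 21 to 39.3, counting error only), beside 48634 of 159490 events over all genes, or 30.5%. TIA1 had 5 of 7 events called (71.4%, 35.9 to 91.8) and TIAL1 6 of 10 (60%, 31.3 to 83.2), and these intervals lay above the share over all genes. TARDBP had 1 of 3 (6.15 to 79.2), EWSR1 8 of 39 (10.8 to 35.5) and TAF15 7 of 33 (10.7 to 37.8), with intervals that held it. Events of a gene share exons and reads, so these counts are not independent of each other and the intervals are too narrow. In TIAL1 the called events include both forms of exon 3. Of its 6 called events, 4 passed an FDR of 0.05 and 3 an FDR of 0.01. Of the 5 called events of TIA1, 5 and 4 passed. Intervals at these thresholds were not computed. No member event was among the 677 retained intron events of all genes.

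Of the skipped-exon events of the members, 17 of 65 were called, or 26.2% (17.0 to 38.0), where 27.5% of all 113456 skipped-exon events were called. A called event with a difference above 0 was found for 16 of the 65, beside 26.4% of all events. In exons, 17 of 44 were sensitive, or 38.6% (25.7 to 53.4), and the share over all genes was 35.8%. By both measures the members as a set lay near the background at this threshold, and the closing section gives the shares under other settings. Within the set, 4 of 6 exons were sensitive in TIA1, 4 of 7 in TIAL1, 1 of 3 in TARDBP, 3 of 14 in EWSR1 and 5 of 14 in TAF15. For sensitive exons, the Wilson interval of every gene held the share over all genes.

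**Figure D1:**
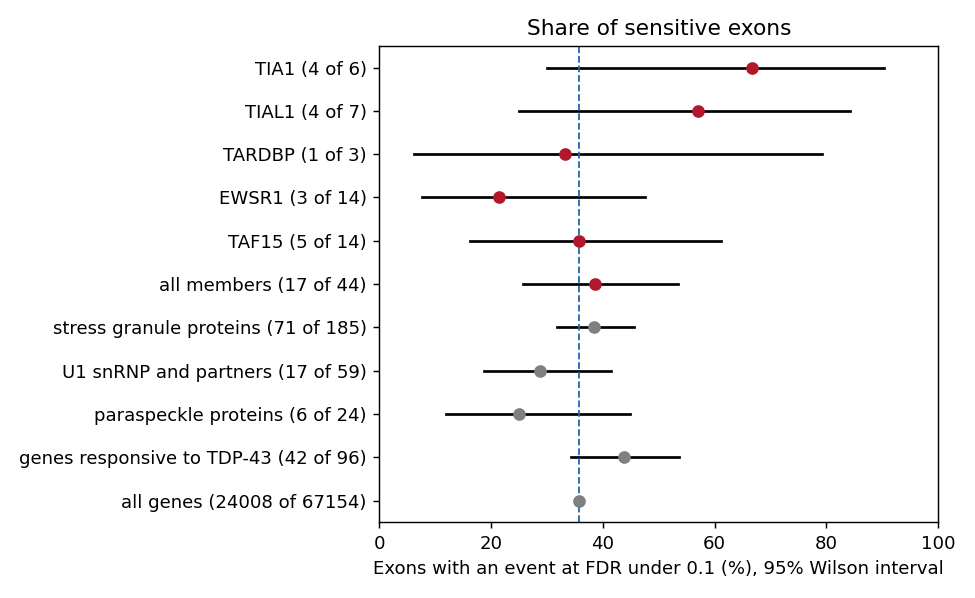
Share of exons with an event at an FDR under 0.1 (%, points) with its 95% Wilson interval (lines), for each member, for all members, for 4 lists of other genes and for all genes; the dashed line is the share over all genes. TIA1 at 66.7% and EWSR1 at 21.4% were the highest and the lowest of the members, and both intervals crossed the dashed line at 35.8%.

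The called differences of the members were small. Their median was 0.028, beside 0.101 over all called skipped-exon events, and in size 0.043 beside 0.108. A size of at least 0.1 was reached by 3 of the 17 called member events, or 17.6%, beside 52.8% over all genes. Over all 65 events, called or not, the median difference of the members was 0.002, beside 0.017 over all genes. An FDR of 1 was listed for 36 of the 65, or 55.4%, beside 36.6% over all genes.

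**Figure D2:**
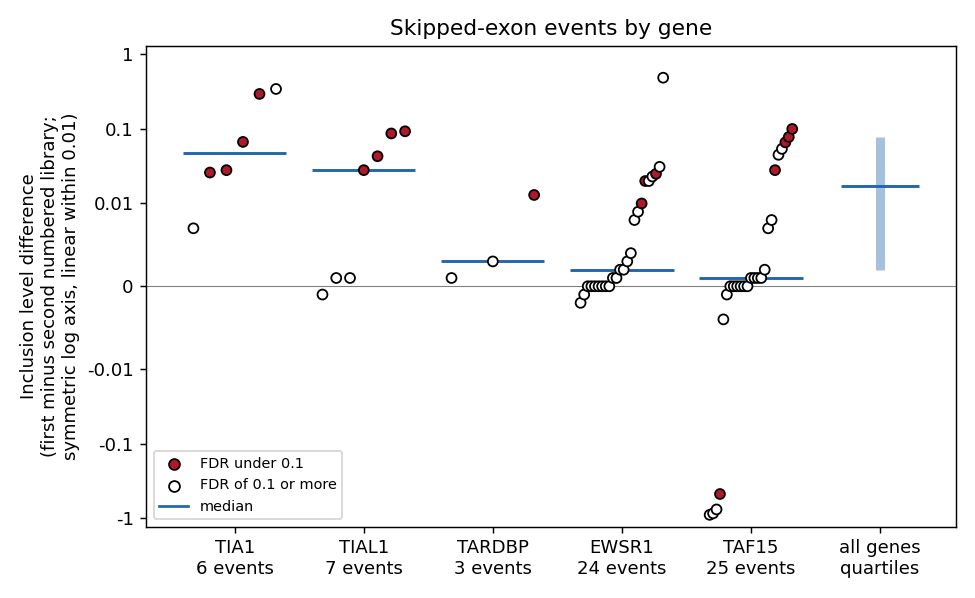
Inclusion level difference of each skipped-exon event (y axis, symmetric log scale, linear within 0.01) for the 5 members, ordered by value within a gene; filled points have an FDR under 0.1, blue lines are medians and the bar on the right spans the quartiles of all genes. Medians were 0.0475 in TIA1, 0.028 in TIAL1, 0.003 in TARDBP, 0.002 in EWSR1 and 0.001 in TAF15, and the 4 lowest points, from -0.904 to -0.475, are TAF15 events.

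The exons and their flanks were placed on the canonical transcripts of GENCODE release 44, which have 54 internal exons in the 5 genes. Of these 40 were listed as skipped exons and 15 were sensitive. In 33 events the exon lay between its direct neighbours of that transcript, or alternative forms of them, and 15 of these events were called. Called or not, the 33 had differences from -0.001 to 0.295, and 1 of the 33 was negative. In the other 32 events at least 1 flank lay farther away, or the exon was not in the transcript, and 2 were called. Over all genes, 30.8% of the 47159 direct-neighbour events and 25% of the 59781 others were called, with 6516 events of symbols without a canonical transcript left out. This split was made after the values had been seen. Among the direct-neighbour events, 4 of 4 were called in TIA1, 3 of 6 in TIAL1, 1 of 2 in TARDBP, 3 of 13 in EWSR1 and 4 of 8 in TAF15.

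**Figure D3:**
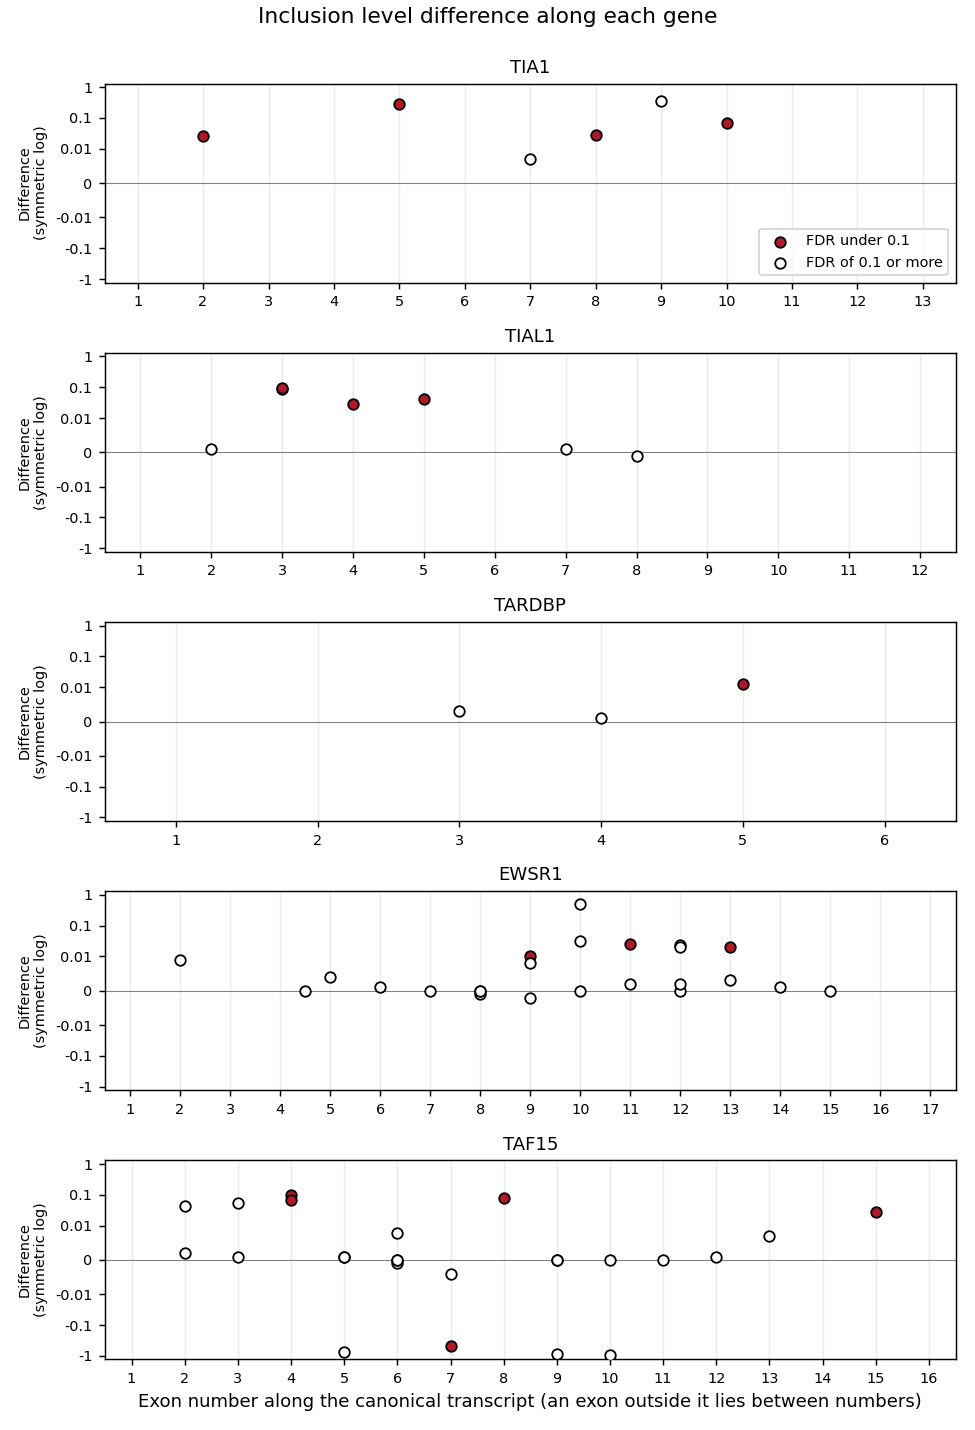
Inclusion level difference (y axis, symmetric log scale, linear within 0.01) of each skipped-exon event against the number of its exon along the canonical transcript (x axis), 1 panel per gene; filled points have an FDR under 0.1. Called events lay at exons 2, 5, 8 and 10 of TIA1, at exons 3 to 5 of TIAL1, at exon 5 of TARDBP, at exons 9, 11 and 13 of EWSR1 and at exons 4, 7, 8 and 15 of TAF15.

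TIA1 lies on the minus strand of chromosome 2 (70436576 to 70475760), and 6 of its 11 internal exons were listed, with positive differences in all 6. The largest difference among the called events was that of exon 5, the 33-base exon printed above at 70456191 to 70456223, at 0.295 with an FDR listed as 0. Among all called skipped-exon events, 83.3% had a lower difference. Exon 5 overlaps residues 93 to 104 of the 386-residue protein, between the first and second RNA recognition motifs, and is the alternative exon that separates the long and short isoforms of TIA1. The junction that skips it is annotated, and the skipping form encodes 375 residues in the same frame.

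The other called exons of TIA1 had smaller differences and lengths that are not multiples of 3. Exon 10 (85 bases, 70443340 to 70443424) differed by 0.067 at an FDR of 6.13e-07. Exon 8 (109 bases, 70444018 to 70444126) differed by 0.028 at an FDR of 0.0105, and exon 2 (97 bases, 70463211 to 70463307) by 0.026 at an FDR of 0.00203. None of these 3 skipping junctions is annotated. Read on the genome, the forms without exon 2, 8 or 10 reach a stop more than 50 bases before their last exon junction, a position from which nonsense-mediated decay is known to act. Whether such RNAs were made or degraded was not measured.

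Exon 9 of TIA1 (96 bases) carried the largest difference of the gene, 0.344, with an FDR of 0.868, in an event whose flanks were exons 7 and 11. Exon 7 (76 bases) differed by 0.007 at an FDR of 1. Both of these events have inclusion junctions that are not annotated. The same exons were also paired as mutually exclusive, with a difference of 0.033 toward exon 7 at an FDR of 0.00248, and 39.3% of all 39869 mutually exclusive exon events were called.

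TIAL1 lies on the minus strand of chromosome 10 (121332977 to 121356476), and 6 of its 10 internal exons were listed. The called skipped-exon events sat side by side in exons 3, 4 and 5, which encode the latter part of the first RNA recognition motif and the start of the second. Exon 3 was called in both forms. Its 99-base form (121341971 to 121342069) differed by 0.087 at an FDR of 9.58e-08, and its 150-base form, which starts 51 bases earlier, by 0.093 at an FDR of 4.42e-07. Both forms share the reads on the common 99 bases and the 5'SS. Exon 5 (88 bases, 121341434 to 121341521) differed by 0.043 at an FDR of 1.34e-08. Exon 4 (55 bases, 121341681 to 121341735) differed by 0.028 at an FDR of 0.0173, with exons 2 and 5 as its flanks. Its inclusion form uses the junction of exons 2 and 4, which is also the skipping junction of both exon 3 events. The events at exons 3 and 4 are therefore not independent.

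Exons 2, 7 and 8 of TIAL1 had differences of 0.001, 0.001 and -0.001, each with an FDR of 1. The choice between the 3'SS of exon 3, which adds the 51 bases printed above, had a difference of -0.026 at an FDR of 0.475 and was not called, where 23.0% of all 2868 alternative 3' splice site events were. The longer form encodes 392 residues and the canonical form 375. Thus both forms of the exon were called as skipped exons, and the choice between the forms was not. As mutually exclusive pairs, exon 7 against exon 8 differed by 0.033 at an FDR of 0.0894, and exon 2 against exon 3 by -0.043 at an FDR of 0.0938. These were the only 2 such events of the gene, and 39.3% of such events were called over all genes.

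The paralogs keep 9 internal exons of equal length, with 72.5% to 83% identical bases, so exon for exon they can be set side by side. Of the 9 pairs, 3 were listed as skipped exons in both genes. The 97-base exon 2, with 81.4% identity, differed by 0.026 in TIA1 and was called, and by 0.001 in TIAL1. The 109-base exon had the lowest identity, 72.5%, and values of 0.028 in TIA1, called, and 0.001 in TIAL1. The 99-base, 55-base and 88-base exons were called in TIAL1 and not listed in TIA1. The 85-base exon was called in TIA1 and not listed in TIAL1. The 96-base exon was listed in both, at 0.344 (FDR 0.868) in TIA1 and -0.001 in TIAL1, and called in neither. No pair was called as a skipped exon in both genes, with 35.8% of all listed exons sensitive and only these 3 pairs to compare. Each of the 3 pairs had a called event of some type in both genes once the mutually exclusive events given above were counted. The difference between paralogs was not tested. Exon 5 of TIA1 has no counterpart of its length in TIAL1.

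TARDBP lies on the plus strand of chromosome 1 (11072711 to 11085549). Of its 4 internal exons 3 were listed, each in 1 skipped-exon event, and the gene had no event of another type. Exon 5 (171 bases, 11080486 to 11080656) differed by 0.013 at an FDR of 2.48e-04, and 94% of all called skipped-exon events had a higher difference. It overlaps residues 182 to 238 of the 414-residue protein, where the second RNA recognition motif begins. The junction that skips it is annotated and keeps the frame, with a skipping form of 357 residues. This event ended on the last exon of the gene (exon 6, 11082181 to 11085549), the exon with the long 3' untranslated region in which TDP-43 acts on its own transcript. Exon 4 (141 bases), in an event that also ended on the last exon, differed by 0.001, and exon 3 (164 bases) by 0.003, both with an FDR of 1. Splicing inside the last exon was not analysed here.

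EWSR1 lies on the plus strand of chromosome 22 (29664257 to 29696511), and 12 of its 15 internal exons were listed. Its 24 skipped-exon events had the smallest called share of the members, at 3 of 24, or 12.5%. The Wilson interval, 4.34 to 31.0, held the 27.5% over all genes, and several of these events share an exon. Of the 24, 16 had an FDR of 1, or 66.7%, beside 36.6% over all genes. Exon 11 (119 bases, 29688477 to 29688595) differed by 0.025 with an FDR listed as 0. Exon 13 (123 bases, 29693817 to 29693939) differed by 0.02 at an FDR of 1.88e-13. Exon 9 (38 bases, 29687551 to 29687588) differed by 0.01 at an FDR of 0.0391, the smallest called difference of the members. Exon 11 starts the RNA recognition motif, and exon 13 keeps the frame when it is skipped (615 of 656 residues).

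The tandem 3'SS of EWSR1 exon 9 gave a larger difference than any called skipped exon of that gene. The sites lie 3 bases apart, as CAG followed by CAG, and the choice between them had a difference of 0.064 toward the upstream site at an FDR of 2.39e-05. The upstream site, ttcttcgtttatccccccAGcag, scored 10.82 and the downstream site, ttcgtttatccccccagcAGcgc, 7.05, by a score that sums log2 ratios of base frequencies at annotated sites over equal frequencies. The forms encode 656 and 655 residues. The 35-base form of the exon differed by 0.008 at an FDR of 0.15 as a skipped exon.

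Among 14 mutually exclusive exon events of EWSR1, 4 were called, or 28.6%, beside 39.3% over all genes. Exon 11 against exon 12 differed by 0.044 at an FDR of 4.28e-10, and exon 10 against exon 11 by -0.028 at an FDR of 4.86e-04. In both, the share of exon 11 in its pair was higher in the first numbered library than in the other, and both events hold the reads on exon 11. Exon 5 against exon 6 differed by 0.015 (FDR 0.0614) and exon 13 against exon 14 by -0.016 (FDR 0.0509). The large uncalled value of the gene, 0.487 at an FDR of 0.246, was that of exon 10 (33 bases) between exons 7 and 14. Between its direct neighbours the same exon had a difference of 0.0. An 18-base exon outside the canonical transcript (29670254 to 29670271) also had a difference of 0.0.

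TAF15 lies on the plus strand of chromosome 17 (34136488 to 34174246), and 13 of its 14 internal exons were listed, in 25 events. Exon 4 was called in both of its forms. The 85-base form (34147168 to 34147252) differed by 0.066 and the 76-base form, which ends 9 bases earlier, by 0.1, each with an FDR listed as 0. The choice between the 5'SS was itself called, with a difference of 0.057 toward the longer form at an FDR of 9.51e-13, where 28.2% of all 2620 alternative 5' splice site events were called. Both sites scored low. The upstream site, aaaGTcagt, scored 5.54, above 15.7% of all listed exons, and the downstream site, cagGTtgga, scored 5.02, above 10.4%. The shorter form encodes 589 residues and the longer 592, and exon 4 lies in the part for the low-complexity N-terminal domain.

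Exon 8 of TAF15, the 35-base exon printed above at 34160911 to 34160945, differed by 0.078 with an FDR listed as 0. Its skipping junction is annotated. Skipping shifts the frame, and the skipping form ends after 212 residues, at a stop 1065 bases before the last exon junction, against 592 residues for the full form. Exon 15 (562 bases, 34171481 to 34172042), the long exon of the RGG repeats, differed by 0.028 at an FDR of 8.97e-10. Its skipping form has its stop in the last exon.

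The only called member event with a negative difference among skipped exons was that of TAF15 exon 7 (121 bases, 34151082 to 34151202), at -0.475 and an FDR of 1.51e-05, with exons 1 and 9 as its flanks. Between exons 6 and 9 the same exon differed by -0.004 at an FDR of 1. The inclusion junctions of the called event are not annotated. The other large negative values of the gene were not called and had distant flanks as well. They were -0.765 for exon 5 between exons 1 and 10, -0.863 for exon 9 and -0.904 for exon 10, both between exons 6 and 12, with FDRs of 0.189, 0.503 and 0.226. Exon 2 missed the threshold with 0.045 at an FDR of 0.103. Of 7 mutually exclusive exon events 1 was called, exon 3 against exon 5, at 0.033 and an FDR of 0.00176. Over all genes 39.3% of such events were called.

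In EWSR1 and TAF15 the exons of 35, 33 and 130 bases correspond in order and length. The 35-base exon shares 26 of its bases, or 74.3%, between the genes, and the stretch gtgGTaagt at its 5'SS is the same in both (score 9.58). Its difference was 0.008 at an FDR of 0.15 in EWSR1 and 0.078 at an FDR listed as 0 in TAF15. The 38-base form of the EWSR1 exon, which has the same 5'SS, was called at 0.01 (FDR 0.0391). As skipped exons, the 130-base exon (72.3% identity) and the 33-base exon (54.5% identity) were called in neither gene. In EWSR1 both took part in the called mutually exclusive events with exon 11 given above. The difference between these paralogs was not tested either.

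Over the members, 12 of the 17 exons with a called event had a length that is not a multiple of 3, and 10 of the 17 skipping forms had their stop more than 50 bases before the last exon junction. Among events that were not called, this was so for 21 of 30 exons and for 22 of the 46 skipping forms that could be read. Exons 11 and 13 of EWSR1 and exon 7 of TAF15 had events of both kinds and were counted in both groups. Among the 44 exons, 13 had a length that is a multiple of 3, or 29.5%, beside 38.8% of all listed exons. A skipping junction was annotated for 10 of the 65 events, and 5 of those 10 were called, or 50%, beside 39.2% of the 20367 such events over all genes. The called ones were exon 5 of TIA1, exon 5 of TARDBP, both forms of exon 4 and exon 8 of TAF15.

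All 44 exons were flanked by AG and GT, as were 98.9% of all listed exons. The 5'SS of the member exons had a median score of 8.14, beside 8.07 over all exons, and the 3'SS 10.59 beside 9.21. Between the 17 sensitive and 27 resistant member exons, the median scores were 7.15 and 8.17 for the 5'SS, and 10.57 and 10.62 for the 3'SS. The lowest sum of both scores belonged to exon 8 of TIA1, a sensitive exon, with agtGTaggt at its 5'SS (4.48) and tctaatgttgtacggaacAGgat at its 3'SS (2.81). Weak sites also occurred in resistant exons. The lowest 5'SS score of all, 1.28 for tccGTatgt, was that of EWSR1 exon 14, which differed by 0.001 at an FDR of 1. The highest, 12.55 for aagGTaagt, was that of TAF15 exon 7. No test was made across exons, which are not replicates.

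**Figure D4:**
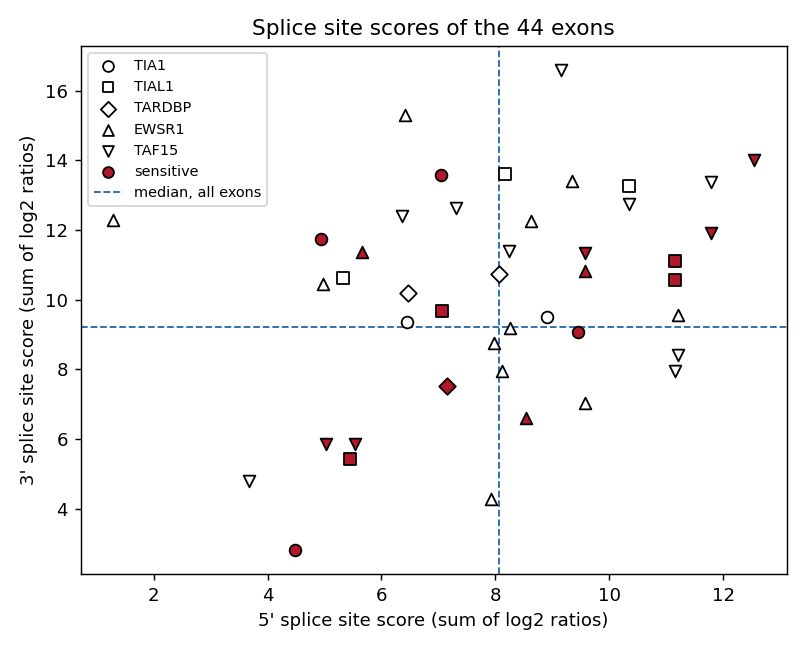
3'SS score (y axis) against 5'SS score (x axis), both sums of log2 ratios, for the 44 listed exons of the members, with 1 marker shape per gene; filled markers are sensitive exons and dashed lines mark the medians of all listed exons, 5'SS 8.07 and 3'SS 9.21. Sensitive exons lie on both sides of both lines, and the filled circle at 4.48 and 2.81 is exon 8 of TIA1.

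The letters that these proteins bind were looked for within the 100 bases on either side of each exon, on the transcript's strand only. These windows were not limited to introns, and beside short introns, as around exon 4 of TAF15, they run into the neighbouring exon. The upstream window of the 99-base form of TIAL1 exon 3 holds the 51 bases that the longer form adds. TTTTT, written as DNA, stands for the U-rich sites of TIA1 and TIAL1, and GTGTGT for the GU repeats of TDP-43. The motifs can overlap by a single T, and the upstream window holds the polypyrimidine tract. Some windows were counted more than once. Both forms of TIAL1 exon 3, and both forms of EWSR1 exon 9, share a downstream window that holds TTTTT. Both forms of TAF15 exon 4 share an upstream window that holds it. The upstream windows of both forms of TIAL1 exon 3 overlap and hold the same TTTTT. The downstream window of an exon can also overlap the upstream window of the next, as between exons 3 and 4 of TAF15. TTTTT was found downstream of 24 of the 44 member exons, or 54.5%, beside 28.3% of all listed exons, and upstream of 27, or 61.4%, beside 39.4%. Downstream it was found at 11 of 17 sensitive and 13 of 27 resistant member exons, and upstream at 10 of 17 and 17 of 27. GTGTGT was found upstream of 5 member exons (11.4%, beside 5.06%) and downstream of 3 (6.82%, beside 5.04%), and the sensitive exons held 1 of the former and 0 of the latter. For exon 5 of TIA1, TTTTT occurred downstream and not upstream. For exon 5 of TARDBP it occurred on both sides, and GTGTGT on neither. These matches describe the windows and not binding.

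In 4 lists of other genes, chosen with earlier results of these data known, the share of sensitive exons ran from 25% to 43.8% beside the 35.8% of all genes. Proteins of stress granules, where TIA1 and TIAL1 collect, had 71 of 185 exons sensitive (38.4%). Of their 385 skipped-exon events 108 were called (28.1%, beside 27.5% over all genes), 101 positive and 7 negative. Of their 185 mutually exclusive exon events 95 were called (51.4%, beside 39.3% over all genes), 49 positive and 46 negative. Over all genes 29996 of the 31247 called skipped-exon events were positive. The events of lowest FDR were in DDX3X, an RNA helicase (0.747), USP10, a deubiquitinase that binds G3BP (0.548), and ATXN2L, a paralog of ataxin-2 (0.442). The U1 snRNP and its partners, which act at the 5'SS with TIA1, had 17 of 59 exons sensitive (28.8%). Of their 118 skipped-exon events 23 were called (19.5%, beside 27.5% over all genes), all positive. Of their 58 mutually exclusive exon events 30 were called (51.7%, beside 39.3%), 17 positive and 13 negative. LUC7L had a difference of 0.089 and SNRPC one of 0.073.

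Paraspeckle proteins, which share nuclear bodies and partners with the FET family, had 6 of 24 exons sensitive (25%). Of their 34 skipped-exon events 6 were called (17.6%, beside 27.5% over all genes), all positive. Of their 11 mutually exclusive exon events 5 were called (45.5%, beside 39.3%), 3 positive and 2 negative. The skipped exons included NONO (0.153), NUDT21 (0.14) and PSPC1 (0.124). Genes whose splicing is known to respond to TDP-43 had 42 of 96 exons sensitive (43.8%). Of their 181 skipped-exon events 67 were called (37%, beside 27.5% over all genes), 64 positive and 3 negative. Of their 60 mutually exclusive exon events 27 were called (45%, beside 39.3%), 10 positive and 17 negative. The skipped exons came from 9 of the 12 genes on that list, and 7 genes had a called skipped-exon event. Of the 42 sensitive exons, 13 were in BRD8 and 10 in ATG4B. BRD8 differed by 0.677, POLDIP3 by 0.464 and MADD by 0.301. Each of these 11 named events had an FDR listed as 0. The Wilson intervals of the share of sensitive exons held the share over all genes for all 4 lists.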

How the data were processed

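Polyadenylated RNA of HEK293T cells was sequenced in 1 control and 1 amiloride library. The submitters' processing notes name STAR 2.5.1 and GRCh37, and the rMATS version is not given in the sources used here. The authors deposited 5 rMATS tables that list a p-value and FDR for each event, both used as deposited, and an inclusion level difference, which was also used as deposited. The 30 columns of reads or levels of 1 library name no condition and were not used, so depth is unknown. The effective lengths of the forms showed which reads had been counted and which exon of a mutually exclusive pair was the inclusion form.

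Events were called at an FDR under 0.1, the threshold the study states for rMATS in its protein knockdown comparisons. It states none for the amiloride comparison. The members and lists were chosen with earlier results of these data known. Named events are, in each table and gene, the 5 called events with the largest difference in size, 1 per exon, and the event of lowest FDR, together with exon 5 of TIA1, the 51-base alternative stretch of TIAL1 (planned as an exon and found to be an alternative 3'SS) and the events at the last exon of TARDBP. Values of uncalled exons are named outside this rule, after they were seen. Lists name the 3 genes of lowest FDR, of which 1 is not reported here. No test was run here, since the design gives no replicates.

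Exons with 2 gene symbols, 92 of them over all genes, were counted once. Coordinates are 1-based on GRCh37, and exons were numbered along the canonical transcripts of GENCODE release 44 lifted to that build. Protein lengths were read from the genome along those transcripts. Splice site scores cover 9 bases for the 5'SS and 23 for the 3'SS, from 300873 and 300290 annotated sites with a pseudocount of 0.5. Paralogous exons were compared base by base without gaps. The alternatives were FDRs of 0.05 and 0.01, sizes of 0.1 or more, at least 1 in 2 events of an exon passing, the event of lowest FDR, exons with exactly 1 event and exons flanked by AG and GT. Annotated inclusion junctions were chosen after seeing the data. The counting was tested on simulated data. Python 3.11.15, pandas 2.3.3, numpy 2.4.6, pysam 0.24.0 and matplotlib 3.10.9 were used.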

Additional observations from a re-analysis of the deposited data

How the results depend on the processing

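With 1 library per condition and no depth per event, neither the error of a difference nor the size of the smallest detectable difference is known. Of the 27 called events of the members, 23 passed an FDR of 0.05, 20 an FDR of 0.01 and 25 remained with skipped-exon events limited to annotated inclusion junctions, but a size of at least 0.1 left 3, exon 5 of TIA1, the 76-base form of exon 4 and exon 7 of TAF15. The share of sensitive exons, 38.6%, was between 31.8% and 45.2% under FDRs of 0.05 and 0.01, the requirement that at least 1 in 2 of an exon's events pass, exons with exactly 1 event, exons flanked by AG and GT and annotated inclusion junctions, and fell to 6.82% (3 of 44) with a difference of at least 0.1, beside 20.4% over all genes. With exactly 1 event per exon it was 45.2% (14 of 31), beside 25.3% over all genes. Set beside all genes in the same way, it was 38.6% and 32.3% at an FDR of 0.05, and 31.8% and 26.9% at 0.01. With at least 1 in 2 events passing it was 38.6% and 30.4%, and with annotated inclusion junctions 39.5% and 32.4%. The median difference of the members, 0.002, moved to 0.0085 with the event of lowest FDR for each exon (0.025 over all genes) and to 0.009 for exons with exactly 1 event (0.014 over all genes). The cause of these moves was not tested. The called events of TAF15 exon 7 and TIAL1 exon 4 were lost with annotated inclusion junctions only. No paired analysis was possible because the labels give no replicate numbers and there is 1 library of each condition.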
